A study of Mus musculus with 12 samples.

Results

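The genes described here are Serpine2, Ctgf (also Ccn2), Cyr61 (also Ccn1), Tgfbi, Sparc, Thbs1, Fn1, Postn and Tnc, 9 of the 37991 genes in the count table. They were chosen by name, as matricellular proteins and classical targets of TGFβ signalling, and found by Ensembl identifier in all 12 libraries. The libraries hold bulk RNA from pancreatic islets of male C57BL/6 mice. Tg7 mice carry a transgene that overexpresses miR-7a2 in β-cells and develop β-cell dedifferentiation and diabetes; Wt littermates without the transgene are the controls. Islets were taken at 2 weeks of age (2w), when Tg7 mice are normoglycaemic, and at 12 weeks (12w), when they are hyperglycaemic, and each of the 4 groups has 3 libraries. Each library was made from pooled islets of at least 3 animals, so that p-values measure the spread between pools.

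Matricellular proteins are secreted into the extracellular matrix, where they bind integrins, growth factors and proteases rather than bearing load, and they are made mainly during development, wound repair and fibrosis. TGFβ is secreted in a latent form, is released by proteases, integrins or thrombospondin, and signals through receptor kinases to SMAD proteins that switch on many matrix genes. In the islet, such genes are known mostly from pericytes, stellate cells, endothelial cells and fibroblasts rather than from β-cells.

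At 12w, Tg7 islets held more RNA of 7 of the 9 genes than Wt islets (12.5% of all tested genes were called higher), with log2 fold changes of 1.21 for Thbs1 to 2.47 for Serpine2. At 2w the test was passed by Serpine2, Fn1 and Tnc (6.07% of all tested genes were called higher). All of these calls were lost without the second or the third Wt library of that age. Those of Fn1 and Tnc were also lost without the first Tg7 library of that age. Between 2w and 12w the RNA of 8 of the 9 genes fell in Wt islets (7.91% of all tested genes were called lower). In Tg7 islets the change of Serpine2 with age was near 0, and the fall in Ctgf, Sparc and Postn was smaller than in Wt islets. Of these differences between the genotypes, that of Ctgf alone was called with every library left out in turn.

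Total counts per library ranged from 11610697 to 17515758. The islet hormone genes were abundant in every library, and Ins1 and Ins2 together took 10.1 to 15.4% of counts in Wt islets at 2w and 14.8 to 30.0% at 12w, against 1.84 to 4.09% and 8.08 to 8.24% in Tg7 islets. Levels are given as CPM, counts scaled to the effective library size with TMM factors, which corrects for such dominant genes. Mature miR-7a is too short for these libraries, so its overexpression was not checked here. Among the 12w Wt libraries, the fourth had an insulin share of 14.8% against 27.0 and 30.0%, and 415 genes in it lay over 4-fold from the mean of the other Wt libraries, the highest number of any library; without it 7 members were called in Tg7 against Wt islets at 12w, as with it. By the same count, the third 2w Tg7 library lay farthest from its group, with 288 genes against 224 in the first and 197 in the second. The first 2w Tg7 library differed from the others of its group in genes of white blood cells. It had 22.4 CPM of Ptprc, a marker of all white blood cells, against 1.95 and 0.79 CPM in the others, and 62.9 CPM of the macrophage gene Lyz2 against 8.25 and 13.2 CPM. It also held 40.9 CPM of Madcam1 and 23.7 CPM of Ccr7, genes of lymphoid tissue that were chosen after their values were seen, while the other 2w Tg7 libraries were at 0 CPM of Madcam1 and at 0 and 0.15 CPM of Ccr7. Results of the members that rest on this library, and the 2w counts for the lists of related genes below, are given with and without it. Counts of cell type markers are given with it alone.

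Because miR-7 is the transgene's product, the annotated 3′ UTRs of the members were searched for a match to its seed. The sequences below are mature miR-7a-5p, from RefSeq (GRCm38.p6), with the seed (bases 2 to 8) in capitals, and the stretch of the Tgfbi 3′ UTR around its match, on the plus strand at chr13:56740783-56740808 of mm9, with the seed match in capitals.
mmu-miR-7a-5p: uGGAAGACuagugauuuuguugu
Tgfbi 3′ UTR site: tcatcccccaaGTCTTCCcaagagcc
Tgfbi was the only member whose UTR held the match. Over all 20007 annotated UTRs, 11.2% held it, and 8.95% did among UTRs close to Tgfbi in length. The match is a description of the letters, and Tgfbi levels did not differ between Tg7 and Wt islets by the test at either age.

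Promoter windows from 250 bases before to 50 bases after the start site were matched in RefSeq (GRCm38.p6) for 6 members, with 8 windows in all. No window was matched for Ctgf, Thbs1 and Fn1. The windows were searched on both strands for CAGAC, a core bound by SMAD proteins, for GGAATG, a core bound by TEAD proteins (the DNA-binding partners of YAP), and for TGANTCA, the AP-1 core, and no matches overlapped in the windows of the members. The windows printed below belong to Serpine2, Sparc and Postn, whose Tg7 effect differed between the ages (as did that of Ctgf). The last belongs to Cyr61, the only member with a TEAD core among those with a window. Capitals mark the matches, on either strand (GTCTG and CATTCC are the reverse complements).
Serpine2, minus strand, chr1:79858616-79858915: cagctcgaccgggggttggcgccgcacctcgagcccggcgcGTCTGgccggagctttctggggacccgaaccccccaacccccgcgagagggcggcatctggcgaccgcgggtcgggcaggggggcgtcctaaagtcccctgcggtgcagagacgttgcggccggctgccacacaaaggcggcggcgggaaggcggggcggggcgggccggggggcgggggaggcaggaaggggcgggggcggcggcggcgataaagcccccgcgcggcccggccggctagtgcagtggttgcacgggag
Sparc, minus strand, chr11:55420031-55420330: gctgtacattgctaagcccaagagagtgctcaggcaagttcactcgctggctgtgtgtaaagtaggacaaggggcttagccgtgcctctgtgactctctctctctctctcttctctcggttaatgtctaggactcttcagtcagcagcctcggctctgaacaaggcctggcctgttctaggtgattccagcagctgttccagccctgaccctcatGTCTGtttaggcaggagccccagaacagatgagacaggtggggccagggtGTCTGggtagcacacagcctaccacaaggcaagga
Postn, plus strand, upstream start, chr3:54359017-54359316: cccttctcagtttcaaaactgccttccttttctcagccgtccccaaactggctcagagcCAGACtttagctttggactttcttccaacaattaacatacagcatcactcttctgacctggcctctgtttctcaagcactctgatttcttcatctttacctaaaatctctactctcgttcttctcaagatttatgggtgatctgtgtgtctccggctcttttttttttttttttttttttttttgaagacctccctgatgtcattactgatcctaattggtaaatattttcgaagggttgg
Postn, plus strand, downstream start, chr3:54360857-54361156: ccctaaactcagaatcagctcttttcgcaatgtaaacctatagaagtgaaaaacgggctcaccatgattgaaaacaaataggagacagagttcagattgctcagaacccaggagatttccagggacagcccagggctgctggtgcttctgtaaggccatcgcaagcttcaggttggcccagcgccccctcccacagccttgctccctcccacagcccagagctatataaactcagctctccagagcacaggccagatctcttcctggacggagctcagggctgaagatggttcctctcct
Cyr61, minus strand, chr3:145649936-145650235: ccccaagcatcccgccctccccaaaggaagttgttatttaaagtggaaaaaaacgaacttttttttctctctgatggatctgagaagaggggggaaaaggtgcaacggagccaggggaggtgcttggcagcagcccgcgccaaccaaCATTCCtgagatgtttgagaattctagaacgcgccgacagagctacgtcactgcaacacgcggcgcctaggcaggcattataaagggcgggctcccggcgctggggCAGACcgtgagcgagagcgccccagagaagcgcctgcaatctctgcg
A SMAD core was present in 7 of the 8 windows, against 49.6% of 32851 windows over all genes. It lay 209 bases upstream of the start site in Serpine2, 35 bases upstream and 15 bases downstream in Sparc, and 191 bases upstream of the upstream start of Postn, whereas the downstream start of Postn had none. Cyr61 held the TEAD core 103 bases upstream of its start, a motif found in 14.7% of all windows. No window of a member held the AP-1 core, which occurs in 7.81% of all windows. The windows of 1 gene can overlap, as both windows of Tnc do, and the matches describe letters only.

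Levels between genes are compared per kilobase of exon (CPM per kb). Sparc was the most abundant member in every group, with 105 ± 27.0 CPM per kb (SD, n = 3) in Wt islets at 2w, and Thbs1 came next with 72.7 ± 8.19. Together they made up 66.1 to 85.0% of the summed CPM of the 9 genes in each library. In 2w Wt islets they were followed by Ctgf (30.2 CPM per kb) and Cyr61 (22.1), whose ranges overlapped, then by Serpine2 (7.86). Postn, Tgfbi, Fn1 and Tnc lay at 3.06, 2.55, 2.51 and 2.28 CPM per kb, and the ranges of neighbours in this order overlapped. At 12w the order in Wt islets was Sparc (23.7), Thbs1 (20.2), Ctgf (3.40), Cyr61 (2.75), Serpine2 (2.68) and Tgfbi (2.31), with overlapping neighbours except between Thbs1 and Ctgf, and Fn1 (0.39), Postn (0.26) and Tnc (0.18) followed, again overlapping. In 12w Tg7 islets Serpine2 had moved to the third place (14.7 CPM per kb), with a range that overlapped that of Ctgf (13.6), and Cyr61 (7.97), Tgfbi (2.72), Postn (1.39), Tnc (0.90) and Fn1 (0.81) followed, of which only Tnc and Fn1 overlapped. The order in 2w Tg7 islets was that of 2w Wt islets down to Serpine2 (14.6), after which Fn1 (9.96), Tnc (6.32), Tgfbi (5.38) and Postn (3.11) overlapped. The first 2w Tg7 library carries the means of these genes: without it they were 3.30 CPM per kb for Fn1, 3.51 for Tnc, 3.04 for Tgfbi and 2.57 for Postn, so that Tnc came before Fn1.

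**Figure D1:**
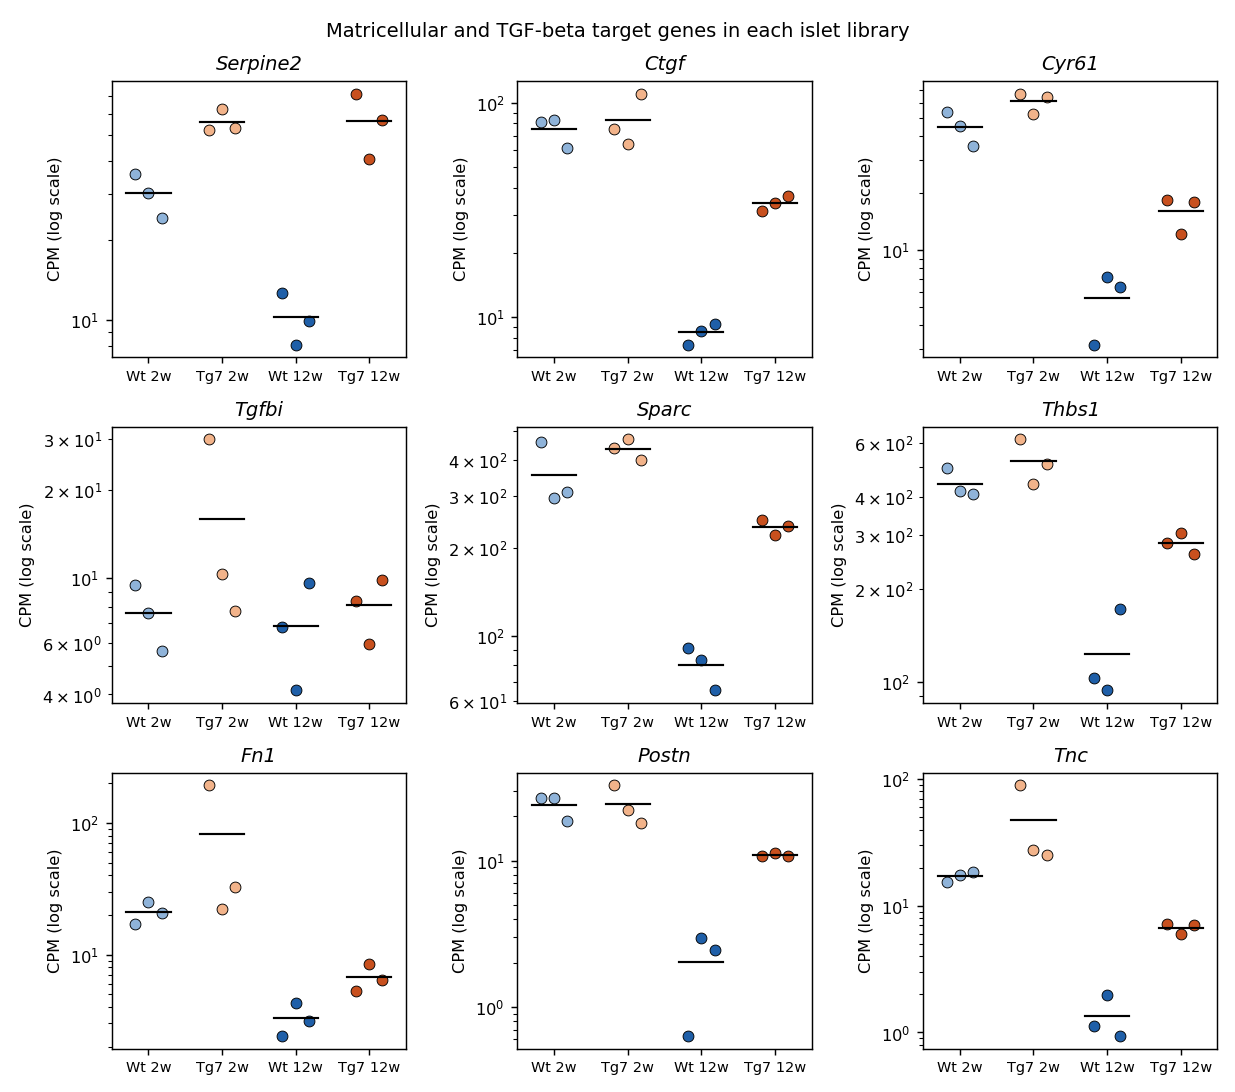
CPM of each member (log scale) in the 12 islet libraries, with 1 point per library and a line at the group mean (n = 3). At 12w all Tg7 libraries lie above all Wt libraries except for Tgfbi, and the high point in the 2w Tg7 group of Tgfbi, Fn1 and Tnc is the same library, at 29.9, 194 and 89.6 CPM.

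Tg7 and Wt islets were compared at each age, to see how the transgene affects islets before and after the onset of diabetes. Of the 15961 genes tested, 12.5% were called higher and 11.2% lower in Tg7 islets at 12w at an adjusted p below 0.05 (edgeR's quasi-likelihood test, Benjamini-Hochberg adjusted over all 15961 genes, as for every adjusted p here). All 9 members were tested, and 7 were called higher and 0 lower. Their median log2 fold change was 1.56, against −0.01 over all tested genes. In 8 of the 9 members all 3 Tg7 libraries lay above all 3 Wt libraries, which held for 20.7% of tested genes. At 2w, 6.07% of tested genes were called higher and 4.55% lower, and 3 members were called higher and 0 lower, with a median of 0.46 against 0.03. The groups did not overlap at 2w for 2 members, Serpine2 and Tnc, both higher in Tg7 islets, as for 17.8% of tested genes. The members were chosen with results of these libraries known, and the study itself lists Serpine2 and Cyr61 among the mesenchymal genes changed in them, so the counts are not independent evidence of a direction.

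Serpine2 encodes protease nexin-1, a secreted inhibitor of thrombin and of plasminogen activators (chr1:79790772-79855271 of mm9, minus strand). Wt islets had 35.7, 30.3 and 24.4 CPM at 2w and 12.7, 8.10 and 9.93 CPM at 12w. Tg7 islets had 52.1, 62.3 and 52.9 CPM at 2w and 71.5, 40.6 and 57.0 CPM at 12w. The Tg7 libraries were above the Wt libraries at both ages, and the 12w Tg7 libraries were above all Wt libraries of either age. In Tg7 islets the log2 fold change was 0.89 at 2w (SE 0.21, adjusted p = 0.0156), compared with 2.47 (SE 0.23) in 12w islets, where it amounted to 5.55-fold (adjusted p = 6.03e-06). The call at 2w was lost without the second or the third Wt library or the second Tg7 library of that age, with adjusted p up to 0.0936.

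Ctgf and Cyr61 encode CCN proteins, secreted modular proteins that bind integrins and heparan sulphate and that respond quickly to TGFβ and to YAP/TEAD. Ctgf (chr10:24315248-24318489 of mm9, plus strand) had 80.9, 83.0 and 61.3 CPM in 2w Wt islets, 75.6, 64.3 and 110 CPM in 2w Tg7 islets, 7.44, 8.65 and 9.33 CPM in 12w Wt islets and 31.2, 33.9 and 36.7 CPM in 12w Tg7 islets. The groups overlapped at 2w and lay far apart at 12w. Relative to Wt islets, its log2 fold change was 0.15 at 2w (SE 0.18, adjusted p = 0.641), compared with 1.99 (SE 0.20) in 12w islets, where the adjusted p was 1.45e-05. Cyr61 (chr3:145309935-145312949 of mm9, minus strand) had 53.8, 45.0 and 35.4 CPM in 2w Wt islets, 67.1, 52.5 and 64.4 CPM in 2w Tg7 islets, 3.15, 7.22 and 6.33 CPM in 12w Wt islets and 18.4, 12.2 and 17.9 CPM in 12w Tg7 islets. Its groups overlapped by a single library at 2w and did not overlap at 12w. Its log2 fold change was 0.46 at 2w (SE 0.23, adjusted p = 0.222), compared with 1.50 (SE 0.26) in 12w islets, where the adjusted p was 9.97e-04.

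Sparc encodes osteonectin, which binds collagen and regulates its assembly (chr11:55208002-55233582 of mm9, minus strand). It had 460, 296 and 310 CPM in 2w Wt islets, 439, 469 and 399 CPM in 2w Tg7 islets, 91.5, 82.8 and 65.4 CPM in 12w Wt islets and 249, 221 and 237 CPM in 12w Tg7 islets. A single 2w Wt library reached the range of the 2w Tg7 libraries, and at 12w every Tg7 library was above every Wt library. The change in Tg7 islets was 0.29 at 2w (SE 0.17, adjusted p = 0.290), compared with 1.56 (SE 0.18) in 12w islets, where the adjusted p was 3.14e-05.

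Thbs1 encodes thrombospondin-1, which can release TGFβ from its latent complex and restrains angiogenesis (chr2:117937612-117952869 of mm9, plus strand). It had 499, 418 and 408 CPM in 2w Wt islets, 617, 443 and 514 CPM in 2w Tg7 islets, 103, 93.7 and 172 CPM in 12w Wt islets and 283, 306 and 261 CPM in 12w Tg7 islets. The groups overlapped at 2w, and at 12w the highest Wt library was still below every Tg7 library. Against Wt islets, the log2 fold change was 0.25 at 2w (SE 0.20, adjusted p = 0.469), compared with 1.21 (SE 0.21) in 12w islets, where the adjusted p was 8.70e-04. This was the smallest change among the members called at 12w.

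Postn and Tgfbi encode the related fasciclin-domain proteins periostin and TGFβ-induced protein, which bind collagen and integrins. Postn (chr3:54165031-54194961 of mm9, plus strand) had 26.6, 26.7 and 18.5 CPM in 2w Wt islets, 32.7, 22.1 and 18.2 CPM in 2w Tg7 islets, 0.63, 2.94 and 2.47 CPM in 12w Wt islets and 10.7, 11.3 and 10.8 CPM in 12w Tg7 islets. The 12w Wt values rest on 5, 37 and 37 reads, and all 12w Tg7 libraries lay above them. In Tg7 islets the log2 fold change came to 0.02 at 2w (SE 0.29, adjusted p = 0.969), compared with 2.35 (SE 0.35) in 12w islets, where the adjusted p was 3.08e-04. Tgfbi (chr13:56710920-56740923 of mm9, plus strand) had 9.49, 7.59 and 5.64 CPM in 2w Wt islets, 29.9, 10.3 and 7.70 CPM in 2w Tg7 islets, 6.81, 4.13 and 9.67 CPM in 12w Wt islets and 8.35, 5.98 and 9.90 CPM in 12w Tg7 islets. Its groups overlapped at both ages, and it was the only member that passed no test in any comparison. Its change on the log2 scale was 1.08 at 2w (SE 0.44, adjusted p = 0.134), compared with 0.23 (SE 0.45) in 12w islets, where the adjusted p was 0.772, and the 2w value was 0.25 (adjusted p = 0.701) without the first Tg7 library.

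Fn1 encodes fibronectin, the matrix glycoprotein on which other matrix proteins assemble, and Tnc encodes tenascin-C, a hexameric matricellular protein of developing and injured tissue. Fn1 (chr1:71632094-71699774 of mm9, minus strand) had 17.2, 25.0 and 20.6 CPM in 2w Wt islets, 194, 22.3 and 32.7 CPM in 2w Tg7 islets, 2.39, 4.29 and 3.13 CPM in 12w Wt islets and 5.30, 8.52 and 6.46 CPM in 12w Tg7 islets. The first 2w Tg7 library stood far above the rest, another 2w Tg7 library lay within the Wt range, and the 12w groups did not overlap. By the test, the log2 fold change was 1.99 at 2w (SE 0.59, adjusted p = 0.0447), compared with 1.02 (SE 0.69) in 12w islets, where the adjusted p was 0.321. Without the first 2w Tg7 library the 2w value was 0.40 (adjusted p = 0.367), and the 12w value was 1.05 and passed the test (adjusted p = 0.0145). The 2w call of Fn1 was also lost with each 2w Wt library left out in turn, and it passed in 9 of 21 alternative fits.

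Tnc (chr4:63620819-63681760 of mm9, minus strand) had 15.4, 17.4 and 18.5 CPM in 2w Wt islets, 89.6, 27.6 and 25.0 CPM in 2w Tg7 islets, 1.13, 1.98 and 0.93 CPM in 12w Wt islets and 7.16, 5.98 and 7.04 CPM in 12w Tg7 islets. Every Tg7 library was above every Wt library at both ages, and the first 2w Tg7 library was again the highest. On the log2 scale, the change was 1.47 at 2w (SE 0.38, adjusted p = 0.0267), compared with 2.30 (SE 0.50) in 12w islets, where the adjusted p was 0.00457. Without the first 2w Tg7 library the 2w value was 0.62 (adjusted p = 0.0969). The 2w call of Tnc was also lost with each 2w Wt library left out in turn, and it passed in 15 of 21 alternative fits. The 12w Wt values rest on 9, 25 and 14 reads.

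**Figure D2:**
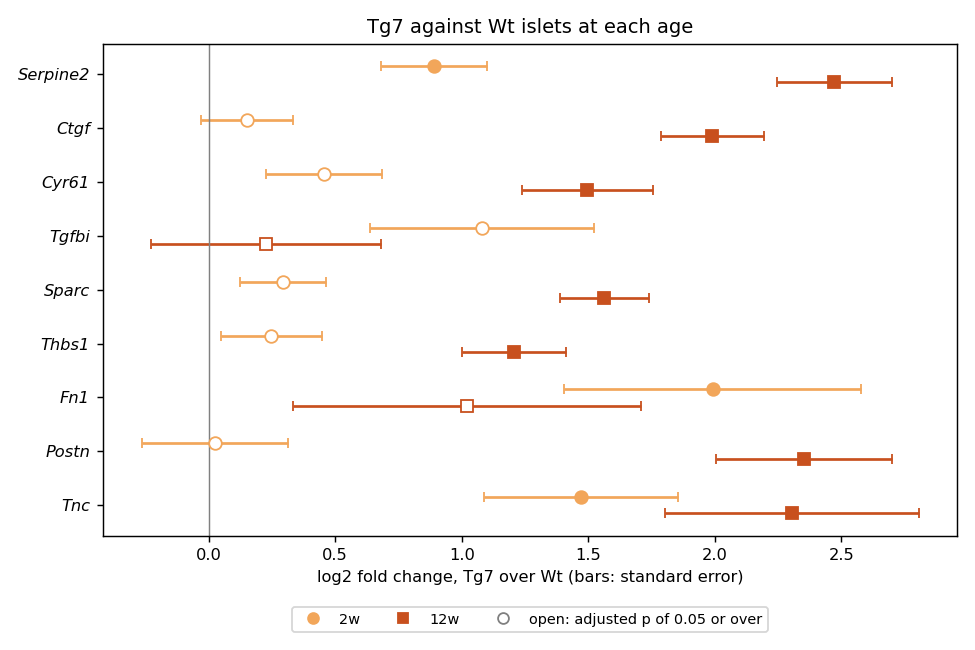
Log2 fold change of each member in Tg7 over Wt islets at 2w (circles) and 12w (squares), with standard errors; filled symbols have an adjusted p below 0.05. Serpine2, Postn and Tnc have the highest 12w values, 2.47, 2.35 and 2.30, and Tgfbi and Fn1 are open at 12w.

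Whether the Tg7 effect differed between 12w and 2w was tested directly, as the 12w effect minus the 2w effect. Over all tested genes, 0.871% were called higher and 0.307% lower in this test, and 4 members were called higher and 0 lower, with a median of 1.04 against −0.03. The effect was larger at 12w by 2.33 log2 units for Postn (SE 0.45, adjusted p = 0.0239), by 1.84 for Ctgf (SE 0.27, adjusted p = 0.00433), by 1.58 for Serpine2 (SE 0.30, adjusted p = 0.0223) and by 1.27 for Sparc (SE 0.24, adjusted p = 0.0218). Of these genes Serpine2 alone had also been called at 2w. The differences for Cyr61 (1.04, adjusted p = 0.185), Thbs1 (0.96, adjusted p = 0.141) and Tnc (0.83, adjusted p = 0.602) did not pass. The values for Tgfbi and Fn1 were −0.85 and −0.97 and turned to 0.0020 and 0.64 without the first 2w Tg7 library, and Tnc then passed at 1.70 (adjusted p = 0.0339). Ctgf was called with every library left out in turn, whereas Serpine2, Sparc and Postn were each lost without some libraries. The count fell to 1 without the first or the third 12w Tg7 library, and to 2 without the first or the second 2w Wt library, the third 2w Tg7 library or the second 12w Tg7 library. Thbs1 passed at 1.29 (adjusted p = 0.00388) without the fourth 12w Wt library, the highest Wt library for this gene at that age.

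The change from 2w to 12w was then compared within each genotype. In Wt islets 7.9% of tested genes were called higher and 7.91% lower at 12w, and 0 members were called higher and 8 lower, with a median log2 fold change of −2.65 against 0.04. In the same 8 members, all but Tgfbi, the 12w Wt libraries lay below all 2w Wt libraries, as for 15.6% of tested genes. In Tg7 islets 7.02% were called higher and 6.01% lower, and 0 members were called higher and 7 lower, with a median of −1.16 against −0.01. In 7 members the 12w Tg7 libraries lay below all 2w Tg7 libraries, as for 19.2% of tested genes. Both genotypes' changes use the same libraries as the comparisons above, and age cannot be told apart from any batch that went with it.

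Serpine2 fell by 1.57 on the log2 scale in Wt islets (SE 0.22, adjusted p = 4.25e-04), while in Tg7 islets its change was 0.02 (SE 0.21, adjusted p = 0.972). Its mean in 12w Tg7 islets was 187% of the 2w Wt mean, against 34.0% in 12w Wt islets. The difference between these changes is the 1.58 given above. Ctgf changed by −3.13 in Wt islets (SE 0.21, adjusted p = 7.29e-07) and by −1.30 in Tg7 islets (SE 0.19, adjusted p = 5.15e-04). Cyr61, the other CCN gene, changed by −2.97 (SE 0.26, adjusted p = 7.86e-06) and −1.93 (SE 0.24, adjusted p = 1.94e-04). The CCN genes thus fell in both genotypes, to 11.3% and 12.4% of the 2w Wt mean in 12w Wt islets, and stood at 45.2% and 36.1% of it in 12w Tg7 islets.

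Sparc changed by −2.15 in Wt islets (SE 0.18, adjusted p = 4.07e-06) and by −0.88 in Tg7 islets (SE 0.17, adjusted p = 0.00382), and Thbs1 by −1.84 (SE 0.21, adjusted p = 7.07e-05) and −0.89 (SE 0.20, adjusted p = 0.0108). Postn changed by −3.48 in Wt islets (SE 0.35, adjusted p = 2.64e-05) and by −1.16 in Tg7 islets (SE 0.30, adjusted p = 0.0195). With all libraries in the fit, the steepest falls in Tg7 islets were those of Fn1 and Tnc. Tnc changed by −3.65 in Wt islets (SE 0.49, adjusted p = 2.66e-04) and by −2.82 in Tg7 islets (SE 0.41, adjusted p = 5.56e-04), and Fn1 by −2.65 (SE 0.68, adjusted p = 0.0168) and −3.62 (SE 0.64, adjusted p = 0.00212). Without the first 2w Tg7 library the changes of Fn1 and Tnc in Tg7 islets were −2.03 (adjusted p = 0.00056) and −1.97 (adjusted p = 2.11e-04), while that of Postn did not pass (−0.89, adjusted p = 0.0846). Tgfbi changed by −0.13 (adjusted p = 0.870) in Wt islets and by −0.98 (adjusted p = 0.165) in Tg7 islets, or by −0.16 (adjusted p = 0.818) without the same library.

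**Figure D3:**
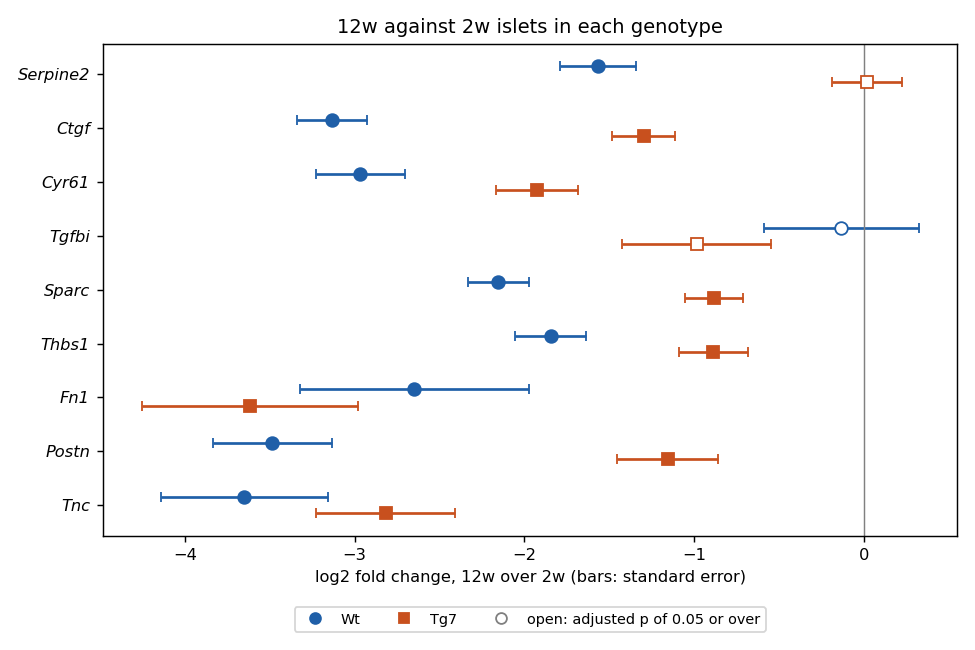
Log2 fold change of each member at 12w over 2w in Wt (circles) and Tg7 islets (squares), with standard errors; filled symbols have an adjusted p below 0.05. The Wt symbols of all members except Tgfbi lie at −1.57 or lower, and the Tg7 symbol of Serpine2 lies at 0.02.

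Markers of stellate cells, endothelial cells and Schwann cells moved with these genes, and those of macrophages did not. The 13 markers of stellate cells, fibroblasts and pericytes summed to 371 to 521 CPM in 2w Wt islets, 563 to 743 in 2w Tg7 islets, 96.4 to 160 in 12w Wt islets and 417 to 444 in 12w Tg7 islets. Of them, 7 were called higher in Tg7 islets at 2w and 12 at 12w, and 0 lower at either age. Over all tested genes, 6.07% were called higher at 2w and 12.5% at 12w. This list shares Col1a1, Col1a2, Col3a1 and Acta2 with the TGFβ targets below, so its sum is not separate from them. Col1a1, Col1a2 and Col3a1 had means of 3.44, 10.1 and 7.72 CPM in 12w Wt islets. In 12w Tg7 islets their means were 53.8, 52.1 and 86.2 CPM. The pericyte receptor Pdgfrb had mean levels of 74.9, 82.6, 11.5 and 38.7 CPM in the same order of groups. Rgs5, another marker of the list, had 113, 100, 77.7 and 109 CPM. It was the only marker of the list not called at 12w (0.49, adjusted p = 0.134). The 10 endothelial markers summed to 946 to 1213, 1052 to 1164, 410 to 544 and 840 to 899 CPM. Of these, 0 were called at 2w and 8 were called higher at 12w. In Wt islets 10 were called lower at 12w than at 2w (7.91% of all tested genes). The 10 macrophage markers summed to at most 70.7, then 59.3 to 129, 97.2 to 111 and 86.6 to 92.1 CPM, the highest 2w value being that of the first Tg7 library. Of them, 1 was called higher in Tg7 islets at 2w, Lyz2, which was highest in that library. At 12w 0 were called higher and 1 lower (12.5% and 11.2% of all tested genes). With age in Wt islets 2 were called higher (7.9% of all tested genes). The 7 Schwann cell markers, of which 6 were tested, summed to 14.9 to 24.6, 17.4 to 36.2, 9.13 to 19.3 and 21.1 to 26.2 CPM, with 0 called at 2w, 3 higher at 12w and 2 lower with age in Wt islets. No marker of the stellate, endothelial and macrophage lists was at 0 in any library, whereas up to 3 of the Schwann cell markers were. None of the marker counts was recomputed without the first 2w Tg7 library. The part that these cells have in the results was not tested here, and in bulk islets fewer cells of a type and less RNA per cell cannot be told apart. From single-cell RNA and sorted cells, the paper reports that genes of epithelial-mesenchymal transition were induced in β-cells. In a β-cell line, it reports that overexpressed miR-7 raised mesenchymal genes, Serpine2 among them. In Tg7 islets it reports more phosphorylated SMAD3, higher RNA of several TGFβ targets, and more collagen I. An inhibitor of a TGFβ receptor brought the collagen I back to normal. It also reports no significant change in the proportion of stellate cells. Those data were not used here.

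**Figure D4:**
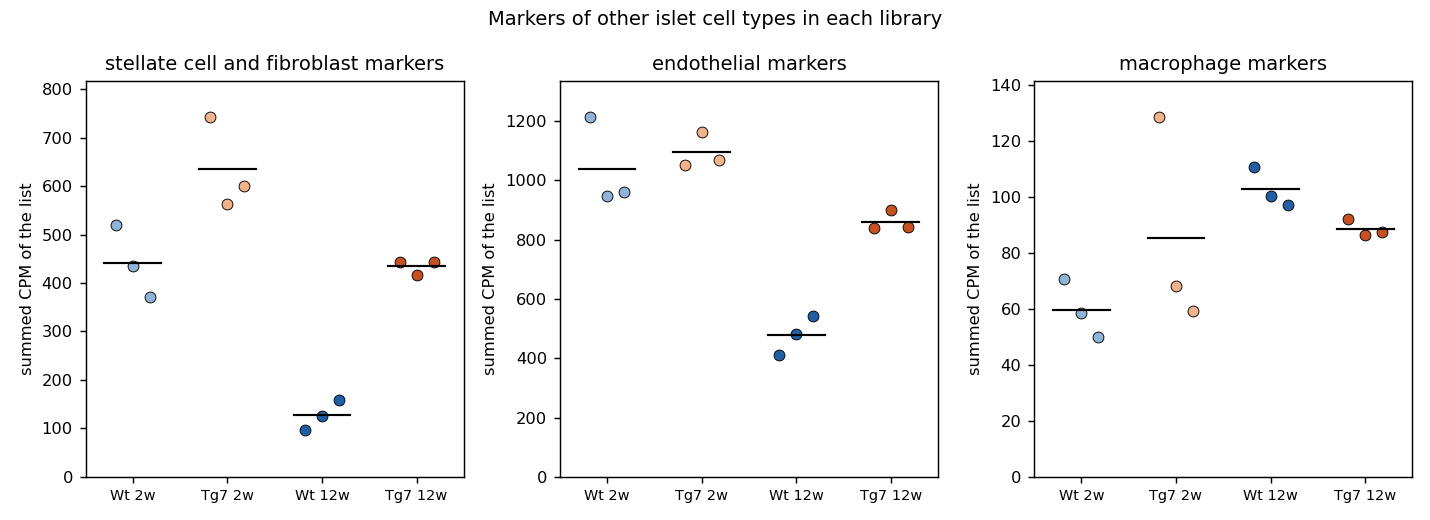
Summed CPM of 13 stellate cell and fibroblast, 10 endothelial and 10 macrophage marker genes in each library, with a line at the group mean (n = 3). The 12w Wt libraries are the lowest for the first 2 lists, at 96.4 to 160 and 410 to 544 CPM. The stellate cell and fibroblast list shares Col1a1, Col1a2, Col3a1 and Acta2 with the TGFβ targets.

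Acinar markers summed to 16.2 to 31.2 CPM in all libraries. Ductal markers summed to 410 to 607 CPM in the first 3 groups and 705 to 994 CPM in 12w Tg7 islets; this list includes Spp1, which is also a matricellular gene. Except in 12w Tg7 islets, most of the mesothelial sum was Msln, whose mean was 112 CPM in Wt and 31.5 CPM in Tg7 islets at 2w and 44.9 and 1.05 CPM at 12w. Apart from Krt19, its other genes (Upk3b, Upk1b, Wt1 and Lrrn4) were at or near 0 and were not tested.

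Of 19 other matricellular genes, 15 were tested. In the counts of this and the following lists, rose and fell mean called higher and lower in Tg7 islets. At 2w 5 rose and 1 fell (6.07% and 4.55% of all tested genes). At 12w 9 rose and 2 fell (12.5% and 11.2%). The medians were 0.47 and 1.46, against 0.03 and −0.01 over all tested genes. Smoc1, a SPARC relative of basement membranes, rose by 1.07 at 2w (SE 0.14, adjusted p = 2.74e-04) and by 2.46 at 12w (SE 0.14, adjusted p = 1.25e-07). Tnxb, the tenascin of loose connective tissue, rose by 0.47 at 2w (adjusted p = 0.0398) and by 2.06 at 12w (SE 0.15, adjusted p = 6.80e-07), and Thbs3, a thrombospondin, rose by 1.53 (SE 0.22, adjusted p = 7.24e-04) and 1.46 (SE 0.22, adjusted p = 3.89e-04). Relatives of the members also fell. Spock1, a SPARC-family proteoglycan, changed by −2.47 at 12w (SE 0.17, adjusted p = 5.17e-07) from 58.1 to 10.5 CPM, and Tnr, a tenascin of nervous tissue, by −1.21 (SE 0.33, adjusted p = 0.0167), while Spock2 was called lower at 2w alone (−0.53, adjusted p = 0.0499). Of the 5 calls higher at 2w, 3 were left in number without the second or the third 2w Wt library or the first or the third 2w Tg7 library. The call of Spock2 as lower was lost with each 2w Wt library left out in turn.

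Of 26 other targets of TGFβ, 25 were tested, and 9 rose and 0 fell at 2w (6.07% and 4.55% of all tested genes). At 12w 16 rose and 1 fell (12.5% and 11.2%), and the medians were 0.41 and 1.08. The fibrillar collagen genes led at 12w. Col1a1 rose from 3.44 to 53.8 CPM (adjusted p = 1.65e-07), Col3a1 by 3.46 (SE 0.23, adjusted p = 2.73e-07) from 7.72 to 86.2 CPM and Col1a2 by 2.37 (SE 0.22, adjusted p = 5.77e-06), and these genes are also among the fibroblast markers above. Col1a1 had risen by 1.15 at 2w (SE 0.20, adjusted p = 0.00230), and so had Bgn, which encodes the small proteoglycan biglycan, by 1.07 (SE 0.21, adjusted p = 0.00512). Tpm1, a tropomyosin, fell by 0.39 at 12w (SE 0.11, adjusted p = 0.0227). This call was lost with each 12w Tg7 library left out in turn, and with library size or upper-quartile scaling. Lox, a collagen crosslinking enzyme, had 0 reads in the 12w Wt libraries together and 41 in those of 12w Tg7 islets, which is at least 9.11-fold higher when 3 reads over the Wt group are taken as the floor, and the list's median at 12w is 1.08 with Lox at this bound. The count at 2w was 7 without the first 2w Tg7 library, but 3 without the third 2w Wt library and 5 without the first or second.

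Of 20 YAP/TEAD targets, 3 rose and 0 fell at 2w (6.07% and 4.55% of all tested genes). At 12w 7 rose and 1 fell (12.5% and 11.2%), and the medians were 0.38 and 0.56. Ccdc80, a secreted matrix protein, rose by 1.97 at 12w (SE 0.28, adjusted p = 1.99e-04), Crim1 by 0.82 (SE 0.17, adjusted p = 0.00281) and F3, which encodes tissue factor, fell by 0.66 (SE 0.14, adjusted p = 0.00337). At 2w, Nt5e, an ectonucleotidase, rose by 1.68 (SE 0.43, adjusted p = 0.0250) and Ptpn14, a phosphatase that restrains YAP, by 0.93 (SE 0.25, adjusted p = 0.0311). The count at 2w was 0 without the third 2w Wt library and 1 without the first or second 2w Wt library or the third 2w Tg7 library. It was 3 without the first 2w Tg7 library and 5 without the first or the fourth 12w Wt library. With scaling by library size alone, which brings the median of all genes at 12w to 0.43, 14 genes of this list were called higher and 0 lower at 12w.

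Of 21 genes for receptors of the members and for proteases of their pathway, 6 rose and 1 fell at 2w (6.07% and 4.55% of all tested genes). At 12w 12 rose and 2 fell (12.5% and 11.2%), and the medians were 0.48 and 0.60. The integrin subunits went in both directions. Itgb3 rose by 1.37 at 2w (SE 0.20, adjusted p = 8.73e-04) and by 2.03 at 12w (SE 0.22, adjusted p = 2.03e-05), and Itga5, the fibronectin receptor's α subunit, rose by 0.47 (adjusted p = 0.0399) and 1.46 (SE 0.15, adjusted p = 1.48e-05). Itgav, the α subunit shared by most TGFβ-activating integrins, fell by 1.25 at 12w (SE 0.25, adjusted p = 0.00297), and Itgb5 fell by 0.41 at 2w (SE 0.11, adjusted p = 0.0259) and by 0.55 at 12w (SE 0.11, adjusted p = 0.00215). F2r, the thrombin receptor, rose by 1.19 at 12w (SE 0.17, adjusted p = 2.51e-04), and the heparan sulphate proteoglycan gene Sdc2 by 0.56 at 2w (SE 0.12, adjusted p = 0.0109). The count of genes higher at 2w was 4 without the first 2w Tg7 library, 1 without the third 2w Wt library, and 3 without the first or second 2w Wt library or the third 2w Tg7 library.

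**Figure D5:**
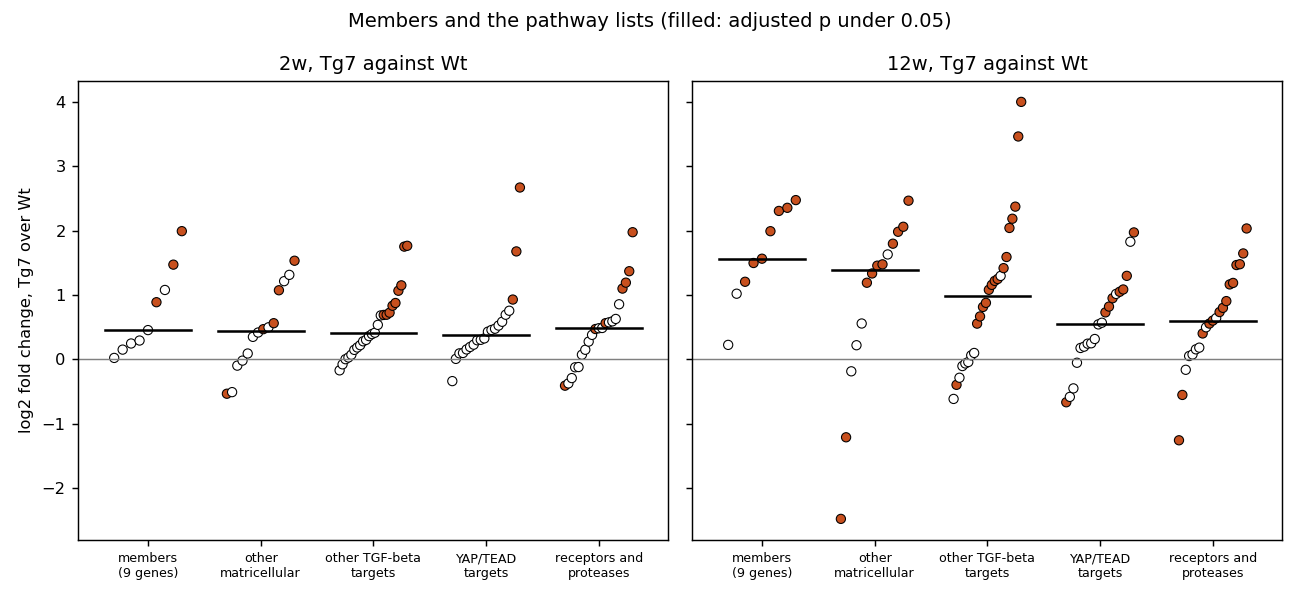
Log2 fold change in Tg7 over Wt islets at 2w and 12w of the 9 members and of the tested genes of the 4 lists, each sorted by value, with filled points for an adjusted p below 0.05 and a line at the median of the points drawn. Tnn and Lox, with at most 2 Wt reads at an age, are not drawn at either age; the median of the members is 0.46 at 2w and 1.56 at 12w.

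The members also differed among themselves in their pattern over the 12 libraries, measured as the root mean square difference of log2 CPM after centring each gene on its own mean (0 means the same pattern). The closest pairs were Sparc with Thbs1 (0.36) and Ctgf with Cyr61 (0.37), and the farthest was Tgfbi with Tnc (1.57). Among 14648 protein-coding genes tested, the nearest to Sparc was Kcnj8 (0.16), a potassium channel subunit of mural cells, followed by Tmem47 (0.24) and Spry1 (0.25). The nearest to Ctgf were Col15a1 (0.22), Ccdc80 (0.26) and Foxs1 (0.28), and those nearest to Cyr61 were Col15a1 (0.32), Fbn1 (0.35) and Cspg4 (0.35). Serpine2 was nearest to Cpne2 (0.27), Bgn (0.29) and Dkk3 (0.31). Thbs1 was nearest to Prex2 (0.22), Msn (0.23) and C230081A13Rik (0.23), and Postn to Egr2 (0.41), Fbln2 (0.41) and Anxa1 (0.45). Tgfbi stood apart from the other members here too, with Fyb (0.21), an adaptor of T cells and myeloid cells, Serpinb9 (0.34) and Ctsc (0.34) as its nearest genes. Fn1 was nearest to Tnc (0.60) and then to the mitotic genes Aspm (0.65) and Cenpf (0.67), and Tnc to Lox (0.42), Adam12 (0.54) and Fbn1 (0.60), and for Fn1, Tnc and Tgfbi the first 2w Tg7 library lies far from the rest of its group. With a prior count of 0.5 in place of 2, Lox was no longer among the 3 genes nearest to Tnc, and 1 of the 3 also changed for Ctgf, Cyr61, Thbs1, Fn1 and Postn. The points of each pattern share their libraries and depth, and the values are descriptions without a test.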

How the data were processed

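The authors made islet RNA libraries with the NEB Ultra II chemistry and sequenced both read ends. They trimmed with Trimmomatic, used TopHat2 2.0.11 for alignment to mm9 and featureCounts for gene counts, and the submitters' processing notes name bcl2fastq 2.20.0. The deposited values are raw counts per Ensembl gene, without normalization; whether counting used strand is not given in the sources used. The authors' tables of fold changes were not used.

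Genes passing filterByExpr (minimum count 10, minimum total 15; 15961 genes) were fitted in edgeR 4.0.16 (R 4.3.3) with TMM factors as 4 group means over 12 libraries, with glmQLFit and glmQLFTest, p-values Benjamini-Hochberg adjusted over these genes and a threshold of 0.05. The SE is the log2 fold change over the square root of F, and log2 CPM used a prior count of 2. The fit was also run on counts simulated from its own dispersions. Those counts hold no library that stands apart from its group, so the run does not cover that case. Figures used matplotlib 3.10.9. Total counts ranged from 11610697 to 17515758, and counting error is largest for the members with few reads in 12w Wt islets.

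Libraries were grouped by their labels. The labels do not say whether the numbers that groups share pair the libraries, and the main fit used no pairing. Residuals of same-numbered Wt and Tg7 libraries correlated at −0.167 to −0.0112, which cannot settle whether the pools were paired. Alternatives were DESeq2 1.42.0, library size or upper-quartile scaling, factors computed without marker genes, other filters (50 counts in 3 libraries, or none), 1 age alone, a replicate block and each library left out.

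The members and gene lists were chosen with earlier results of these data known. Named are all members, per member the 3 genes of nearest pattern, per list the 3 genes of smallest p at 12w and the 2 at 2w among those called, every gene called against the list's majority, and a few defining markers. Gene positions are from the mm9 annotation, to which 37205 of 37991 identifiers matched.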

Additional observations from a re-analysis of the deposited data

Results flagged for a closer look

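The Tg7 effect on 4 members differed between the ages by the test of the difference itself (edgeR's quasi-likelihood test, adjusted over all tested genes). It was larger at 12w than at 2w by 2.33 log2 units for Postn, by 1.84 for Ctgf, by 1.58 for Serpine2 and by 1.27 for Sparc. Ctgf alone was called in this test with every library left out in turn. Stellate cell and fibroblast markers moved in the same direction over the same libraries, from a summed 96.4 to 160 CPM in 12w Wt islets to 417 to 444 CPM in 12w Tg7 islets, and their part in the differences was not tested. These markers include Col1a1, Col1a2, Col3a1 and Acta2, which are also TGFβ targets, so their sum is not separate from that list.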

How the results depend on the processing

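The 12w calls were the steadiest: 7 members were called in Tg7 against Wt islets, and 7 to 8 under every alternative run, each library left out included. At 2w, 3 members were called, 1 with edgeR on the 2w libraries alone and 0 to 3 with a library left out, with 0 without the second or the third 2w Wt library. For the difference between the ages the count was 4, and 1 to 5 with a library left out. From 2w to 12w, 8 members were called in Wt islets (7 to 8 with a library left out) and 7 in Tg7 islets (5 to 7). The change of Serpine2 with age in Tg7 islets, 0.02, turned to −0.10 with library size alone and to −0.018 with the replicate block, and ranged from −0.19 to 0.21 with a library left out. Other values that changed sign with a library left out were those of Ctgf (−0.11 to 0.30) and Postn (−0.25 to 0.18) at 2w, Tgfbi at 12w (−0.045 to 0.59), Tgfbi with age in Wt islets (−0.50 to 0.14), and Tgfbi (−1.15 to 0.0020) and Fn1 (−1.41 to 0.64) for the difference. None of these had passed the test. With the replicate block, Fn1 at 2w did not pass (1.65, adjusted p = 0.0914), Thbs1 passed for the difference (1.33, adjusted p = 0.00425), and no other call of a member changed. Scaling by library size alone brought the median of all genes from 0.03 to 0.19 at 2w and from −0.01 to 0.43 at 12w, and changed no call of a member. Depth limits Postn, Tnc and Fn1 in 12w Wt islets, where single libraries held 5, 9 and 19 reads.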
